A study of Homo sapiens with 2 samples.

Results

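Mutually exclusive exons of equal length are pairs of alternative exons of which a transcript takes either the upstream or the downstream member and that have exactly as many bases as each other. They were chosen from the deposited table of mutually exclusive exon events by exon coordinates alone, as the events in which both alternative exons had the same length. Of 39869 events, 378 met this rule, a share of 0.948%. These events fell in 263 genes and held 297 distinct exon pairs, because a pair is listed again when its flanking exons differ. Of the pairs, 234 appeared in 1 event and none in more than 4. The effective lengths by which rMATS scales the reads of both forms were equal in each of the 378 events and exceeded the exon length by 125 bases.

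The events were called in polyA+ RNA of HEK293T, a human embryonic kidney cell line. There was 1 control library without treatment and 1 library of cells kept for 6 h in 300 µg/mL amiloride, a diuretic that blocks epithelial sodium channels and that served to perturb splicing. No condition was replicated, and the read counts and inclusion values of the libraries were not used here, so the account concerns the exons and not their response. Splicing of the 297 pairs in either library was not analysed here. Coordinates refer to GRCh37 (hg19) and annotations to GENCODE release 44 lifted to that build.

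In classical mutually exclusive splicing, neighbouring exons arose by duplication within a gene, and each mature transcript carries a single copy. The copies often encode alternative versions of the same stretch of protein, so that the exchange changes a binding pocket or a channel segment without changing the length of the protein. Event callers also list as mutually exclusive any pair of cassette exons that are skipped in turn, and such exons need not share any sequence.

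Paired exons of similar sequence can be read directly. The following pairs are shown because both exons are coding, their genes are textbook cases of exchangeable exons, and their differences range from scattered bases to long runs. The exons of RAB6A, a small GTPase of Golgi traffic, lay on the minus strand at chr11:73429830-73429935 (upstream) and chr11:73429658-73429763 (downstream). Those of PKM, the pyruvate kinase that completes glycolysis, lay on the minus strand at chr15:72495363-72495529 (upstream) and chr15:72494795-72494961 (downstream). Those of U2AF1, the splicing factor subunit that contacts the AG at the end of an intron, lay on the minus strand at chr21:44521476-44521542 (upstream) and chr21:44520563-44520629 (downstream). All are written 5′ to 3′ in transcript direction, with the bases that differ between the paired exons in capitals.
RAB6A upstream exon: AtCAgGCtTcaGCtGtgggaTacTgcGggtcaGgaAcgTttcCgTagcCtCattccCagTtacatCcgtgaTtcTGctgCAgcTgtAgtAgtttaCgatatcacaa
RAB6A downstream exon: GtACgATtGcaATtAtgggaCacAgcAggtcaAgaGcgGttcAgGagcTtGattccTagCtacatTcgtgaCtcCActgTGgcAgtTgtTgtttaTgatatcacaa
PKM upstream exon: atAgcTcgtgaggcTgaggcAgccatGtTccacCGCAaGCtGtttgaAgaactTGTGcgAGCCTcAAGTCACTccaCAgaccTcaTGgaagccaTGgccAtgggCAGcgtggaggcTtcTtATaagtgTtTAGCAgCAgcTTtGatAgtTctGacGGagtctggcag
PKM downstream exon: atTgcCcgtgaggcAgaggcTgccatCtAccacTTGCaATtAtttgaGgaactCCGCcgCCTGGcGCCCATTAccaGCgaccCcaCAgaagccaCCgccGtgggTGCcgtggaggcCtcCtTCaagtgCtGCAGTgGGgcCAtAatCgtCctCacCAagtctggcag
U2AF1 upstream exon: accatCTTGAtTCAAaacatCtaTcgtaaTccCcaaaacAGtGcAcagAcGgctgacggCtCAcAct
U2AF1 downstream exon: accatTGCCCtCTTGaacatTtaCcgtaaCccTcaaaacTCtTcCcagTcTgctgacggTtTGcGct

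The RAB6A exons differed at 31 of 106 bases, and the capitals stood mostly alone, with unchanged bases on either side. The PKM exons differed at 62 of 167 bases, and the U2AF1 exons at 23 of 67. In PKM the differences were isolated near the 5′ end and included runs further along the exon.

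The stress-activated kinases MAPK8 and MAPK9, which phosphorylate the transcription factor JUN, carried exchangeable exons of the same length in both genes. The MAPK8 exons lay on the plus strand at chr10:49632131-49632202 (upstream) and chr10:49632557-49632628 (downstream), and the MAPK9 exons on the minus strand at chr5:179674855-179674926 (upstream) and chr5:179674439-179674510 (downstream). Capitals again mark differences within a gene.
MAPK8 upstream exon: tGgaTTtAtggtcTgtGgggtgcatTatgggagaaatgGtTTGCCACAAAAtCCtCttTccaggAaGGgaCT
MAPK8 downstream exon: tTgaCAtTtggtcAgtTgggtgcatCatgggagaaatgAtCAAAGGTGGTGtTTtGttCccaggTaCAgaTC
MAPK9 upstream exon: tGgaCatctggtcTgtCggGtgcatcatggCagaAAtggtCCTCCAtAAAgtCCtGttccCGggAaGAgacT
MAPK9 downstream exon: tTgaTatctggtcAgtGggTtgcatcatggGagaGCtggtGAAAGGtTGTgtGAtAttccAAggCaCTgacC

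As a contrast, MEF2A, a transcription factor of muscle and neurons, had an equal-length pair without such a resemblance. Its exons lay on the plus strand at chr15:100246934-100247060 (upstream) and chr15:100250839-100250965 (downstream), and capitals mark 95 differing bases of 127.
MEF2A upstream exon: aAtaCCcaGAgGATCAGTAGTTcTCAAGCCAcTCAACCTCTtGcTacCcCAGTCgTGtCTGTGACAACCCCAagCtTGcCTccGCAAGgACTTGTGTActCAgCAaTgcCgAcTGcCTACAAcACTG
MEF2A downstream exon: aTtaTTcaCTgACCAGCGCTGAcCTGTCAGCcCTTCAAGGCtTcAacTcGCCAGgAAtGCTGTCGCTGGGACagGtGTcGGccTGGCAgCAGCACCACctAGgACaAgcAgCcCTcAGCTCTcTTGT

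Both MEF2A exons belonged to the canonical transcript as exons 10 and 11, and 11 annotated transcripts held both. They started in different reading phases. Equal length in this pair went without similar sequence, and the same held for most of the 297 pairs.

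Whether equal length stands out among differences in length was read from neighbouring values. The downstream and the upstream exon differed by 1 to 12 bases, in either direction, in 157 to 236 pairs per signed difference, against 297 pairs with no difference. Across these 24 neighbouring values the median was 206.5 pairs for the 8 differences that were multiples of 3 and 188 pairs for the other 16. A multiple of 3 keeps the reading frame whichever exon is used. When pairs with a global alignment identity of at least 60% were left out on all sides, 244 equal-length pairs remained, against 157 to 229 pairs per neighbouring difference. Among these differences equal length thus kept the highest count at this cut. Leaving out every equal-length pair called duplicated exons below gave 226 pairs, under the highest neighbouring count of 229. The rule for duplicated exons needs equal lengths and was not applied to the neighbouring differences. Whether equal length stands out without similar exons thus depended on the cut.

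**Figure D1:**
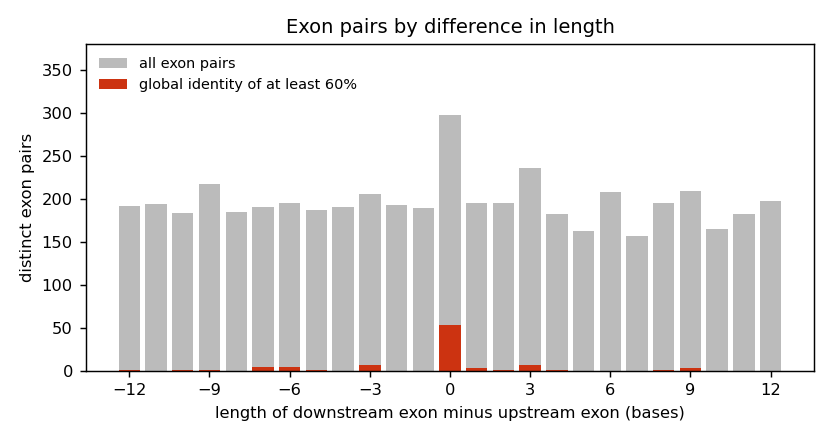
Distinct exon pairs (y axis) by length of the downstream minus the upstream exon in bases (x axis). Grey bars give all pairs and red bars, drawn in front, those with a global alignment identity of at least 60%; at 0 the bars reach 297 and 53 pairs.

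Identity was counted position by position without gaps, in transcript direction. Its median over the 297 pairs was 30.8%, with quartiles of 26.1% and 48.1%. Pairs under 40% numbered 199, and a further 27 lay from 40% to under 50%. At 50% or more lay 71 pairs in 57 genes, called duplicated exons here, with a median of 62.9%. The name stands for this identity alone, and a common origin of the exons was not tested. The remaining 226 pairs had a median of 28.9%. Just inside the limit, at 50%, stood pairs of LRIG1, SLIT2 and MTHFSD, and just outside it, at 49.2%, a TPM1 and a COL6A5 pair. The set thus held a large group of unlike exons and a smaller group of similar ones with a broad range of identity.

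For comparison with pairs of unequal length, identity was taken from a global alignment, as 1 minus the edit distance over the longer length. At least 60% was reached by 53 of 297 equal-length pairs (17.8%). The same level was reached by 28 of 10483 pairs whose lengths differed by a multiple of 3 (0.267%), and by 14 of the other 19347 pairs (0.0724%). The medians were nearer to each other, at 47.8% for equal-length pairs and 45.3% for both kinds of unequal pairs. A part of this difference follows from the measure, since a pair whose shorter exon is under 60% of the longer cannot reach the level, as was the case for 39.3% of unequal pairs. Among unequal pairs within 12 bases, a comparison added after seeing the data, 23 of 1660 reached it where the difference was a multiple of 3 (1.39%) and 12 of 2946 elsewhere (0.407%). Their medians were 47.5% and 47%. Similar exons were thus found at a higher share among pairs of equal length also beside pairs near in length, while a typical pair of the set resembled its counterpart about as little as a typical unequal pair.

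Annotation separated these groups further. Both exons occurred together in at least 1 annotated transcript in 273 of 297 pairs. In 22 pairs in 20 genes (7.41%) each exon was annotated but no transcript held both, and in 2 pairs, in NARF and SLC9A8, an exon was not annotated. Among unequal pairs, exons never annotated together made up 1.19% where the lengths differed by a multiple of 3 and 0.915% elsewhere. Of the 22 pairs, 19 were duplicated exons. The other 3 were a pair of ACSL1, which activates fatty acids for metabolism, at 47.4%, and 2 non-coding pairs of the zinc finger gene ZNF707. A strict exchange, with transcripts annotated for each exon between the same flanking exons, was found for 37 equal-length pairs (12.5%) and for 4.87% of unequal pairs. Among duplicated exons never annotated together it was found for 18 of 19.

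Genes known for mutually exclusive exons came from 5 lists of 52 symbols in all. Of these, 37 were in the table, and 20 of them had an equal-length pair. The 150 pairs of these genes included 22 of equal length (14.7%, against 0.986% of all pairs in the table). Of the 22 pairs, 20 were duplicated exons and 12 were never annotated together. The exceptions below 50% were the MEF2A pair at 25.2% and the TPM1 pair of 126 bases. In 14 of the 22 pairs the canonical transcript carried the downstream exon only, in 7 the upstream exon only, and in MEF2A both.

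**Figure D2:**
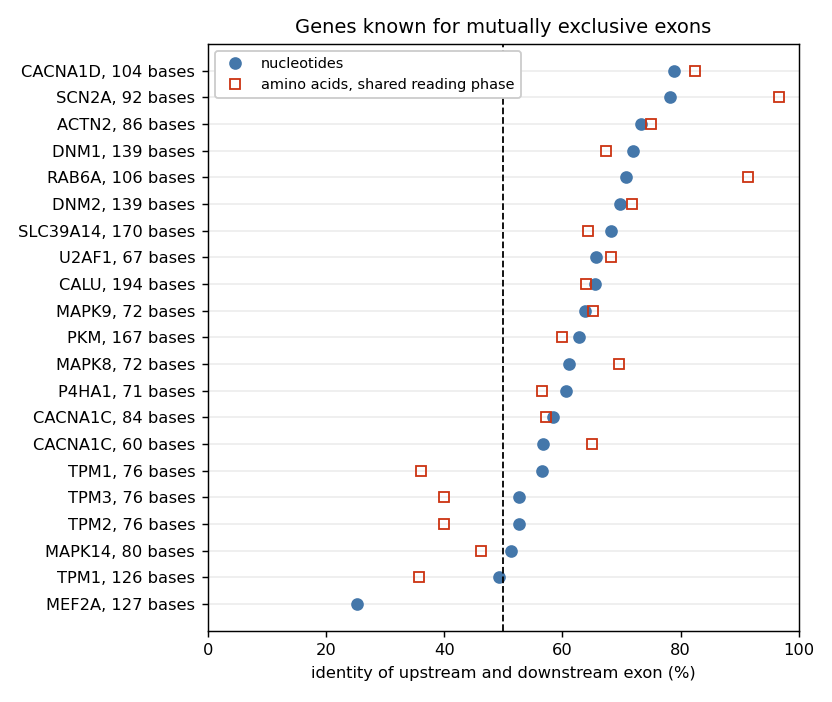
Identity in percent (x axis) of the upstream and downstream exon for 21 of the 22 equal-length pairs in the lists of known genes (y axis, with exon length). Blue points give nucleotide identity and red squares amino acid identity in the shared reading phase; MEF2A has no square because its exons start in different phases, and the dashed line stands at 50%.

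Among metabolic and secretory genes, 4 of 6 had an equal-length pair, and all 4 pairs were duplicated exons. PKM reached 62.9% in nucleotides and 60% in amino acids, with 401 bases between the exons. CALU, a calcium-binding protein of the secretory pathway, had the longest exons of the group with 194 bases, 65.5% identity and only 73 bases between them. P4HA1, a subunit of the enzyme that hydroxylates proline in collagen, had exons of 71 bases with 60.6% identity. The exons of none of these 3 genes were annotated together.

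Among kinases and receptors, the equal-length pairs were those of MAPK8, MAPK9 and MAPK14, and none of the 3 was annotated together. The MAPK8 exons shared 61.1% of bases and 69.6% of amino acids, and the MAPK9 exons 63.9% and 65.2%. MAPK14, the p38 kinase of stress and cytokine signalling, stood lower, with 51.2% of bases and 46.2% of amino acids over 80 bases. The fibroblast growth factor receptors, several of which have exchangeable exons that set ligand specificity, had no pair of equal length. For FGFR2, the pair nearest in length had exons of 148 and 145 bases with a global identity of 54.7%.

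Cytoskeleton and membrane traffic contributed 8 pairs in 7 genes. The dynamins DNM1 and DNM2, GTPases that pinch off endocytic vesicles, both had exons of 139 bases, with 71.9% and 69.8% identity. RAB6A reached 70.8% in bases but 91.4% in amino acids. ACTN2, the actinin that anchors actin filaments in the muscle Z-disc, had 73.3% and 75%. The tropomyosins, coiled coils along actin, went the other way. Their exons of 76 bases shared 56.6% of bases in TPM1 and 52.6% in both TPM2 and TPM3, but only 36.0%, 40% and 40% of amino acids. The TPM1 pair of 126 bases, whose downstream exon is exon 2 of the canonical transcript, had 49.2% and 35.7%.

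Transporters and channels had 5 pairs in 4 genes, all duplicated exons. CACNA1D, a voltage-gated calcium channel, reached 78.8% of bases and 82.4% of amino acids over 104 bases. Its relative CACNA1C held 2 pairs, of 84 bases with 58.3% and of 60 bases with 56.7% identity. SCN2A, a voltage-gated sodium channel of neurons, reached 78.3% of bases and 96.7% of amino acids. The zinc transporter SLC39A14 had exons of 170 bases with 68.2% of bases and 64.3% of amino acids in common. In the group of nuclear factors, U2AF1 shared 65.7% of bases and 68.2% of amino acids, and both of its exons occurred together in 2 transcripts.

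A few related genes carried pairs of the same length, which allowed exons to be compared across genes; these comparisons were chosen after the identities within genes had been seen. The upstream exon of MAPK8 shared 79.2% of bases with the upstream exon of MAPK9, and the downstream exons shared 77.8%. Both values were above those within each gene and above 61.1% and 70.8% for the crosswise comparisons. The dynamins showed the same order with smaller distances, at 77.0% for upstream and 73.4% for downstream exons. Among the tropomyosins the downstream exons shared 76.3% to 79.0% across genes and the upstream exons 64.5% to 68.4%, against at most 56.6% within a gene. Exons at the same position thus resembled each other more across these genes than the paired exons within them. ACSL1 and ACSL6, with exons of 78 bases, followed this order for the upstream exons only, which shared 64.1% across genes, while the downstream exons shared 50% and the ACSL6 exons 61.5% within the gene.

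Coding pairs allowed differences to be placed within codons. Both exons were coding in 280 of 297 pairs (94.3%), and 198 pairs (66.7%) also started in a shared reading phase. Among unequal pairs the phase was shared in 47.8% where the lengths differed by a multiple of 3 and in 32.4% elsewhere. Among the duplicated exons, 69 of 71 pairs shared the phase. Their median amino acid identity was 60%, with a range of 24.3% to 100%, against a median of 9.43% for the 129 phase-sharing pairs that were not duplicated. Much of this gap follows from the definition, since the groups were split by the identity of the same bases.

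In duplicated exons the mismatches were unevenly spread over the codon. Of 2273 mismatches in whole codons, 48.3% fell at codon position 3, 27.7% at position 1 and 24% at position 2. In pairs that were not duplicated the shares were 34.7%, 33.3% and 32.0%. The last position often leaves the amino acid unchanged. Of 1500 codons that differed between duplicated exons, 40.4% encoded the same amino acid, against 8.06% of 4156 in the other pairs. These shares are not independent of the definition, since the groups were split by identity. The 1500 codons held 2273 mismatches and the 4156 codons 8970, so changed codons of the other pairs held more mismatches each. Codons with the same number of mismatches were not compared. Position 3 held more mismatches than either other position in 55 of the 69 pairs, and in 17 of the 18 that were never annotated together.

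**Figure D3:**
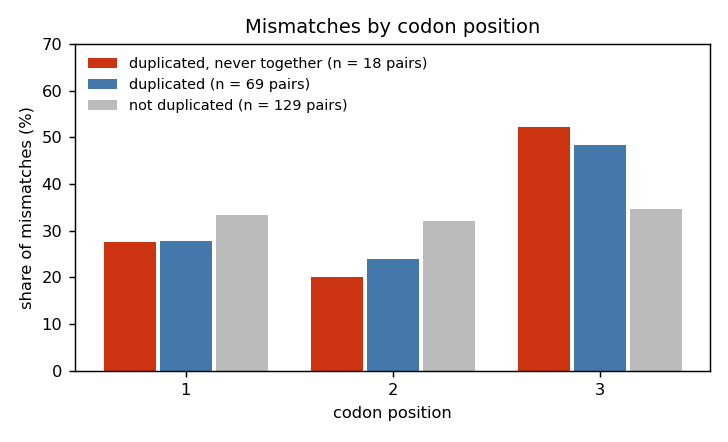
Share of mismatches in percent (y axis) at each codon position (x axis) for phase-sharing pairs, summed over pairs. Red bars are the 18 duplicated pairs never annotated together, which are part of the 69 duplicated pairs in blue, and grey bars the 129 pairs that were not duplicated; position 3 holds 52.3%, 48.3% and 34.7%.

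RAB6A, whose isolated capitals were seen above, was the clearest case among the printed sequences. In RAB6A, 23 of 31 were at position 3, with 21 of 24 changed codons synonymous. In PKM, 33 of 62 were at position 3, but only 17 of 39 changed codons kept the amino acid. The paired exons of RAB6A thus encoded nearly the same peptide, and those of PKM peptides with 60% of amino acids in common.

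A length that is not a multiple of 3 shifts the frame, relative to a transcript with a single exon of the pair, when both exons are used or both are lost. This held for 123 of 297 pairs, so that 58.6% of lengths were multiples of 3, against 38.8% of upstream exons in all unequal pairs and 47.8% where the lengths differed by a multiple of 3. Among the duplicated exons never annotated together, 13 of 19 lengths were not multiples of 3, PKM, RAB6A and SCN2A among them. The 31.6% that were multiples of 3 were thus below the share in the equal-length set and near that of all unequal pairs. Among duplicated exons that were annotated together, 67.3% of lengths were multiples of 3. In the known genes, 17 of 22 lengths were not. Exchange of the exons, in contrast, leaves the frame unchanged for any equal-length pair that shares a phase.

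Several equal-length pairs in 1 gene occurred in 22 of 263 genes, a number of which encode proteins built from repeats. COL25A1, a membrane-bound collagen, and SLIT2, a secreted guidance cue with leucine-rich repeats, had 4 pairs each, of which 3 and 1 were duplicated exons. ANKRD36, COL27A1, FBN2, NME1-NME2 and ZNF707 had 3 each. All 3 were duplicated exons in ANKRD36 and NME1-NME2, 1 in FBN2 and in ZNF707, and 0 in COL27A1, so several pairs in a gene did not imply similar exons.

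Some exon lengths matched the size of known repeat units. The most frequent length was 72 bases, or 24 codons, the size of a leucine-rich repeat, with 19 pairs. SLIT2, LRIG3 and LGR4, all leucine-rich repeat proteins, were among them, but so were the MAPK8 and MAPK9 pairs, and only 5 of the 19 were duplicated exons. At 99 bases, or 33 codons, the size of an ankyrin repeat, stood 4 pairs, of which 1 was duplicated, in the ankyrin repeat genes ANK2 and ANKRD6 and in HSDL2. At 111 bases, or 37 codons, stood 4 pairs. The 2 duplicated ones were in CTTN, encoding cortactin, an actin-binding protein with repeats of this size, at 62.2% and 65.8%, and the other 2 were in GNB2L1 and TASP1.

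The collagen symbols had 12 equal-length pairs among 56 pairs (21.4%), of which 4 were duplicated exons, and the count includes COL4A3BP, a ceramide carrier that is no collagen. Collagen pairs of 45 or 54 bases, or 15 and 18 codons, occurred in COL25A1 and COL27A1, where exons encode whole Gly-X-Y triplets. The median identity of the collagen pairs was 45.4%, between that of duplicated exons and of the rest. Only the COL5A1 pair, with 69 bases and 62.3%, was never annotated together. Genes of matrix and EGF repeats had 5 equal-length pairs among 52 (9.62%), 3 of them duplicated, in FBN2, LTBP4 and NOTCH1. Genes of spectrin and giant cytoskeletal proteins and the NBPF genes had 22 and 19 pairs in the table and 0 of equal length. Of 358 pairs in ZNF genes, 4 were of equal length.

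The highest identities among exons of at least 50 bases lay partly in such genes. Of the 10 genes with the highest values, 8 are given here. INO80C, a subunit of a chromatin remodeller, reached 90.7% over 54 bases, ANKRD36C 87.7% and NME1-NME2 87.6%. The last is a readthrough transcript of neighbouring nucleoside diphosphate kinase genes, so its paired exons belong to tandem gene copies. In its pair of 113 bases all 14 mismatches in whole codons were at position 3 and all were synonymous, giving 100% amino acid identity. ANKRD36 stood at 84.9%, the mitotic kinesin CENPE at 81.8% and ZNF707 at 80.6%, followed by CACNA1D and SCN2A. Of the 10 genes, ZNF707, CACNA1D and SCN2A were the 3 whose exons were never annotated together.

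The distance between the exons also varied with identity. Its median was 2671 bases over the 297 pairs and 3216 over unequal pairs. For duplicated exons it was 1177 bases, and for those never annotated together 344. A distance of at most 100 bases was found for 15 equal-length pairs (5.05%), against 2.30% of unequal pairs. Of these 15 pairs, 9 were never annotated together.

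The 8 duplicated pairs among these 9 had 32 to 95 bases between their exons. The shortest distances belonged to MTHFSD with 32, EYA4, a transcriptional co-activator with phosphatase activity, with 38, and ACP1, a low molecular weight phosphatase, with 41. ACSL6 had 57, COL5A1 63, RAB6A 66, CALU 73 and SCN2A 95. The ACSL1 pair, with 47.4% identity, had 66. The other 11 duplicated pairs never annotated together ranged from 256 bases in TPM2 to 4121 in MAPK14. A short distance was thus common but not general among these pairs.

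**Figure D4:**
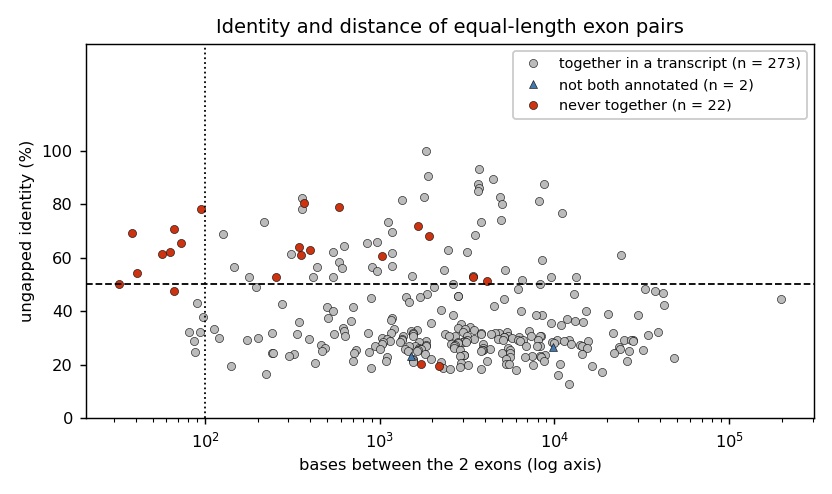
Ungapped identity in percent (y axis) against the number of bases between the exons (x axis, log scale) for 297 equal-length pairs. Red points are pairs never annotated together, and the dashed and dotted lines mark 50% and 100 bases; 8 red points lie at or above the dashed line and left of the dotted one.

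Splice sites were scored against all annotated sites as sums of log2 ratios of base frequencies, over 9 bases at the 5′ splice site (5′SS) and 23 bases at the 3′ splice site (3′SS). Median 5′SS scores of equal-length pairs were 8.0 for the upstream and 7.82 for the downstream exon, against 8.24 and 8.10 in unequal pairs. Median 3′SS scores were 9.47 and 9.18, against 9.45 and 9.50. Both exons lay between AG and GT in 98.3% of equal-length and 98.3% of unequal pairs. By these medians the sites of the whole set were close to those of other listed exons, but the 3′SS of duplicated exons scored lower. Their medians were 8.24 upstream and 8.22 downstream, and 7.20 and 7.87 where the exons were never annotated together.

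Duplicated exons had more alike 5′SS than the others. A median of 7 of 9 bases matched between the sites of a pair, against 5 in unequal pairs, and the median absolute score difference was 0.95 against 2.13. A part of this follows from the definition, since 3 of the 9 bases are exon bases that also count in the identity. At the 3′SS the median absolute difference was 2.36 over duplicated exons, against 2.85 in unequal pairs. Over the duplicated exons never annotated together it was 4.75, so these 3′SS differed more in score than those of unequal pairs. In bases they were as alike, with a median of 10 of 23 matching in both groups. In PKM, the 5′SS cagGTaggg and cagGTagga (GT in capitals) scored 8.95 and 8.92, while the 3′SS scored 8.73 upstream and 3.98 downstream. In U2AF1 the 3′SS scored 15.42 upstream and 9.99 downstream, and in RAB6A 12.98 and 7.56. The reverse was seen in P4HA1, with 6.52 upstream and 15.17 downstream. Over the 22 pairs of the known genes the upstream 3′SS scored higher in 13, so neither side prevailed by much.

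Among the pairs of the known genes, MAPK8 and MAPK9 had the lowest 5′SS scores, although lower ones occurred elsewhere in the equal-length set. Their sites actGTatcc and atcGTatcc in MAPK8, and actGTatcc and accGTatcc in MAPK9, scored -0.99 and -2.16, and -0.99 and -2.59. All 4 introns began with GTATCC, the letters of the 5′SS of introns removed by the minor, U12-dependent spliceosome. These letters, searched on the transcript strand at the first 6 intron bases, followed 6 of 582 distinct exons of equal-length pairs (1.03%) and 76 of 37473 exons of unequal pairs (0.203%). The remaining 2 exons were in ADGRL2 and RBM8A. Both exons of a pair carried the letters in 2 equal-length pairs, those of MAPK8 and MAPK9, and in 4 unequal pairs. A match of letters does not show which spliceosome acts on an intron.

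Most of these exons were also listed as skipped exons with identical coordinates. Both exons of a pair were in that table for 280 equal-length pairs (94.3%), against 98.1% of unequal pairs. Neither was there for 10 equal-length pairs (3.37%), against 0.285% of unequal pairs. Of these 10 pairs, 9 were duplicated exons: those of MAPK8, MAPK9, MAPK14, CACNA1D, EYA4, TPM1 (76 bases), ANKRD36 and 2 of ANKRD36C. The remaining pair was in PTPRJ, a receptor phosphatase, with 28.4% identity. The exons of PKM, RAB6A, SCN2A and U2AF1 appeared in both tables.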

How the data were processed

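PolyA+ RNA of HEK293T was sequenced by the authors, with 1 control and 1 amiloride library. Reads had been aligned with STAR 2.5.1 to hg19 (GRCh37), per the submitters' processing notes, and splicing events were listed by the authors with rMATS, whose version is not given in the sources used here. From the deposited tables only exon coordinates, strands, gene symbols and effective lengths were taken. The 30 columns of read counts and inclusion levels in the 5 tables number the libraries without naming a condition and were not used, nor were the authors' p-values, false discovery rates and inclusion differences. Hence no depth applies and no test was run.

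Exon sequences were read from GRCh37 with pysam 0.24.0 and compared with edlib 1.3.9, numpy 2.4.6 and pandas 2.3.3 under Python 3.11.15. Figures were drawn with matplotlib 3.10.9. Identity functions were tested on simulated exons. Splice site scores used 300873 annotated 5′SS and 300290 annotated 3′SS of GENCODE release 44, with a pseudocount of 0.5. Named genes were every equal-length pair of the 5 lists, the 10 genes with the highest identity among pairs of at least 50 bases, the 5 genes with the most pairs and all tied with them, and repeat families by symbol. Members and lists were chosen with earlier results of these data known. Other genes were named to account for small counts, after their values were seen. Some members are counted but not reported here.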

Additional observations from a re-analysis of the deposited data

How the results depend on the processing

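A share was taken as moved outside the 95% Wilson interval of the main value, and a count when it changed by over 1.5 times. By these limits, 3 alternatives moved a value. With an identity of at least 60%, 46 pairs counted as duplicated exons in place of 71, since the limit is stricter. With at least 1 exon required in the skipped-exon table, the share was 96.6% in place of 94.3%. Unequal pairs within 12 bases reached 60% global identity in 0.76%, against 0.141% of all unequal pairs, still below 17.8% at equal length. An identity of at least 40% gave 98 pairs, a change of less than 1.5 times, and 57 remained with 1 pair per gene. The alternatives of 12 bases and of 1 pair per gene were chosen after seeing the data. In protein-coding transcripts alone, 27 pairs were never annotated together, against 22 in all transcripts. No paired analysis was possible because the conditions had a single library each and no test was run. The limit of 50% divides a continuous range, with 3 pairs exactly on it. Annotation status reflects the transcripts that GENCODE holds and not what HEK293T expresses, and event listing by rMATS depends on the annotation and reads it was given.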

Other observations

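Similar exons were also found just outside equal length. A global identity of at least 60% was reached by 42 unequal pairs in 36 genes, of which 28 differed by a multiple of 3 bases and 14 by exactly 3. SLC25A3, the mitochondrial phosphate carrier, had exons of 125 and 122 bases with 66.4% global identity, and MEF2C, a relative of MEF2A, exons of 144 and 138 bases with 63.9% and 59 bases between them. SLC7A2, a transporter of cationic amino acids, had exons of 140 and 137 bases with 61.4%. The exons of these 3 genes were never annotated together, as in 8 of the 42 pairs. FYN, a tyrosine kinase of the Src family, had exons of 165 and 156 bases with 55.8%, below this level, and never together either. All 4 genes lie outside the equal-length rule by 3 to 9 bases. SLC7A2 was named after its values were seen.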
